A study of Mus musculus with 12 samples.

Results

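The sarcomere of the ventricular cardiomyocyte was followed through the transcripts of 10 genes, Myh6, Myl2, Myl3, Mybpc3, Ttn, Actc1, Tpm1, Tnnt2, Tnni3 and Tnnc1, which were picked by name from 52858 genes in the deposited tables. All 10 were measured in every library, and all 10 were among the 15240 genes with enough reads to be tested. RNA was sequenced from 12 samples of mouse heart, 3 in each of 4 groups. C57-non-IR and C57-IR hearts came from C57BL/6J mice, and Slit2-non-IR and Slit2-IR hearts came from Slit2-Tg mice, which carry a full-length human Slit2 cDNA under the ubiquitous CMV promoter and were made by injecting C57 × CBA F1 oocytes. The methods describe male mice of 3 to 5 months for the study. All hearts were taken out and perfused with buffer on a Langendorff apparatus. Non-IR hearts were perfused for 80 min without a break, whereas in IR hearts flow was stopped for 20 min after the first 20 min and then restored for 40 min. The C57BL/6J mice are described as the background strain, not as littermates of the transgenic mice, and the transgene stood under a promoter that is not restricted to heart muscle. The groups were read from the letters of the sample labels against the 4 groups of the methods.

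The sarcomere is the contractile unit of striated muscle. Thick filaments of myosin pull on thin filaments of actin when calcium binds troponin C and the troponin complex moves tropomyosin off the myosin-binding sites, and titin runs from the edge of the sarcomere to its middle as an elastic scaffold. Adult mouse ventricle uses a set of cardiac isoforms of these proteins, and some of them are replaced by fetal, atrial or skeletal isoforms in other muscles or in disease. The question put to these genes was whether their transcript levels differed between genotypes or after ischemia and reperfusion, beside the myofilament phosphorylation that the study addressed.

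Each library held between 16601154 and 24841291 reads on genes, as recovered from the FPKM values, and mitochondrial genes took 19.7 to 26.0% of them. Levels are given in FPKM, fragments per kilobase of gene length, scaled by 1 factor per library. The mouse Slit2 gene lay between 0.0847 and 0.813 FPKM over the 12 libraries. It was at 0.180 to 0.222 FPKM in C57-non-IR hearts and at 0.213 to 0.282 FPKM in C57-IR hearts. In Slit2-non-IR hearts it was at 0.169 to 0.184 FPKM, and in Slit2-IR hearts at 0.0847 to 0.813 FPKM. The study reported more Slit2 mRNA and protein in Slit2-Tg hearts by PCR and Western blotting. Whether reads of the human cDNA were counted for the mouse gene was not tested, so its values do not check the genotype labels. The replicate 1 libraries stood apart from the other libraries of their groups, as described for titin below, and the labels name no batch. Atrial genes were uneven. The summed FPKM of 6 atrial markers was 1714 in Slit2-IR replicate 1 and 233 in C57-IR replicate 2, against 19.9 to 106 in the other 10 libraries. In those 10 libraries most of the sum was Nppa, at 13.3 to 97.3 FPKM, while Myl7 was at 0.0817 to 12.5 FPKM. The sum therefore does not rank those 10 by atrial tissue. Bmp10, a marker of the right atrium and 1 of the 6, was at most 0.0131 FPKM in any library. The 3 ventricular markers summed to 2597 to 4857 FPKM, and 11 skeletal muscle, 5 blood and 5 lung markers to at most 25.3, 49.0 and 12.5 FPKM. Since bulk heart tissue was sequenced, fewer cardiomyocytes and less RNA per cardiomyocyte cannot be told apart in any value below. The labels call the 3 samples of a group independent and do not say from how many hearts they came, so p-values measure the spread between these samples, called hearts here.

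Sequence in front of the transcription start is shown for 4 members, as examples of muscle promoter motifs on both filaments, a feature that was not used to choose the genes. RefSeq gave 12 start sites for the 10 genes on GRCm38.p6, and the 250 bases before each start were searched on both strands. The CArG box, the binding motif of serum response factor, was found for Actc1 and Myl3, whereas 1.47% of 32817 mouse windows held one. The 100 bases before the start are printed 5′ to 3′ on the strand of the gene with that box in capitals, which began at -47 in Actc1 (chr2:114052876-114052975, minus strand) and at -85 in Myl3 (chr9:110763578-110763677, plus strand).
Actc1: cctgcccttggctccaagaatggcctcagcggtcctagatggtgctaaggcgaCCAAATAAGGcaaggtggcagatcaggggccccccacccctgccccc
Myl3: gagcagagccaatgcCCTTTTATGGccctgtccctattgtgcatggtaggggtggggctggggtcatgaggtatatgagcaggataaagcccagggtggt

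The MCAT element CATTCC, a motif bound by TEAD factors, lay before the start of 5 members (Myh6, Myl3, Tnnt2, Tnnc1 and Tpm1) and in 12.6% of all windows. It is capitalised, as read on the strand of the gene, for Tnnc1 (chr14:31208212-31208311, plus strand, at -58) and Tpm1 (chr9:67049214-67049313, minus strand, at -56).
Tnnc1: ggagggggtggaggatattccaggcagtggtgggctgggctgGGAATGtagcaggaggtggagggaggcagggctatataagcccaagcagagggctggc
Tpm1: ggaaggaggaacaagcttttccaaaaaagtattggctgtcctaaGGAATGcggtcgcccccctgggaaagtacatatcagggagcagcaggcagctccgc

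None of these boxes overlapped another of the motifs searched. The MEF2 site was found for Mybpc3 and Ttn and in 2.92% of windows, and the E-box CANNTG for 9 of the 10 members and in 66.2%. For the TATA box only the exact string TATAAA was searched, which lay before a start of Myl2 alone, at -216, and in 12.4% of windows. Both RefSeq starts of Myl2, also the one with this match, lay outside the span of Myl2 in the deposited tables. Variants such as the tatataag in the Tnnc1 window above were not counted. A match of letters is a description of these windows and shows no binding.

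By FPKM, the sarcomere genes other than Ttn were among the most abundant nuclear transcripts of these hearts. Together the 10 genes took 6.58% ± 1.12 of the reads on genes in C57-non-IR hearts (SD, n = 3), 6.32% ± 0.930 in C57-IR hearts, 6.75% ± 0.743 in Slit2-non-IR hearts and 6.80% ± 0.751 in Slit2-IR hearts. The means differed by less than the SD within any group. Without mitochondrial genes the shares were 8.74% ± 1.49, 8.52% ± 1.27, 8.71% ± 0.907 and 8.68% ± 0.772 in the same order.

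By mean FPKM over the 12 libraries, Actc1 led with 5774 FPKM and was above the next gene in 12 of 12 libraries. Myl2 (3305 FPKM), Myh6 (3253 FPKM) and Myl3 (2743 FPKM) followed. Myl2 was above Myh6 in only 6 libraries, and Myh6 above Myl3 in 7, so the order of these 3 was within their spread. Tnnc1 (1759 FPKM) and Tnni3 (1750 FPKM) could not be ordered either, with Tnnc1 higher in 6 libraries. Tpm1 lay at 1047 FPKM, below both in every library, and Tnnt2 (802 FPKM) and Mybpc3 (772 FPKM) traded places between libraries. Ttn was last at 19.6 FPKM. Among all nuclear genes, the mean of Actc1 ranked 2, that of Mybpc3 ranked 31 and that of Ttn ranked 1881.

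This order depended on the length used. The deposited gene length exceeded that of the principal GENCODE transcript for 9 of the 10 genes, and for Tnnt2 it was 7752 bases against 1200. Per length of the principal transcript, a scale chosen after the data were seen, Myl2 led at 9737 FPKM, Actc1 (6343 FPKM) and Myl3 (5984 FPKM) followed, and Tnnt2 moved up to 5184 FPKM. On that scale Tnni3 lay at 3958, Tpm1 at 3578, Myh6 at 3377 and Tnnc1 at 2540 FPKM, and Mybpc3 and Ttn stayed at the lower end with 772 and 22.8 FPKM. A change of length scales a gene alike in every library and leaves the comparisons between groups as they are.

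**Figure D1:**
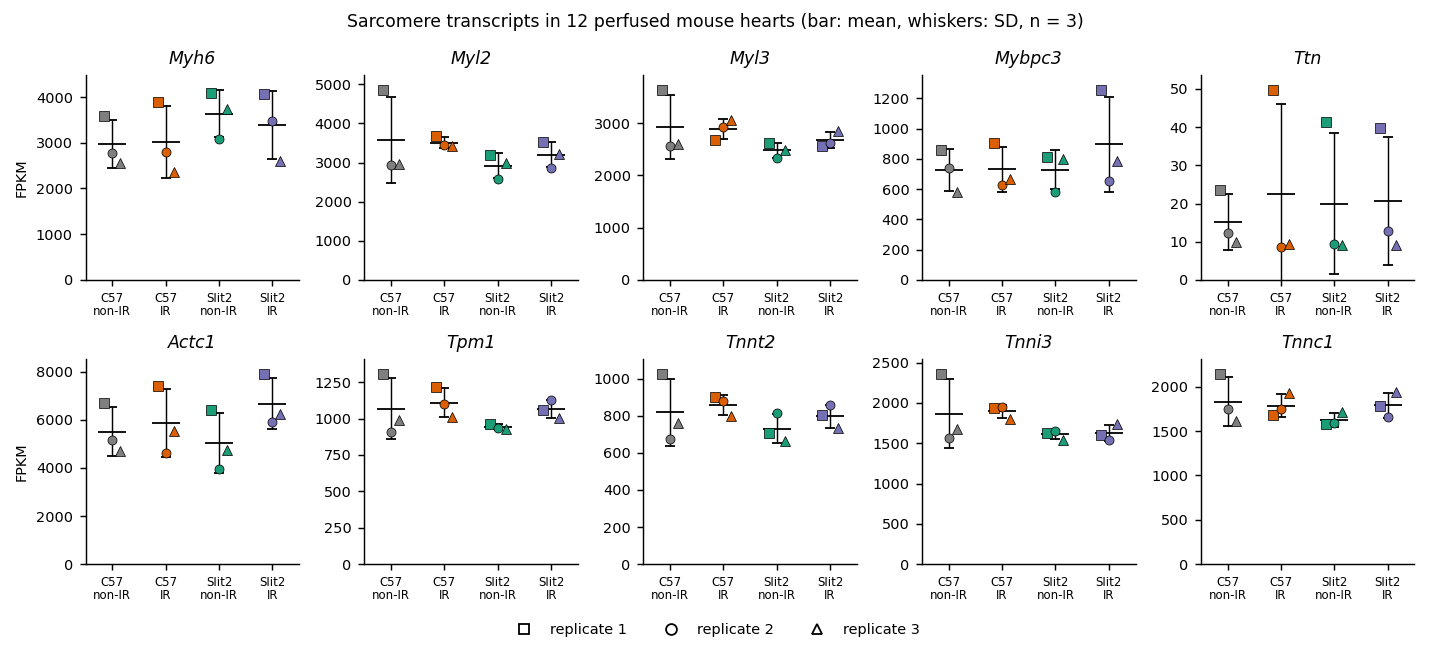
FPKM of the 10 sarcomere genes in each of the 12 libraries by group, with thick filament and titin genes in the upper row and thin filament genes in the lower row. Squares, circles and triangles mark replicates 1, 2 and 3, bars the mean and whiskers the SD (n = 3, cut at 0 for Ttn). The groups overlap in almost every panel, and replicate 1 is the highest point of each group for Ttn, Actc1, Myh6, Myl2 and Mybpc3.

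Among the thick filament genes, Myh6 encodes the fast α-myosin heavy chain, the main motor of the adult mouse ventricle (chr14:54941981-54966927, GRCm38). In replicates 1, 2 and 3 it was at 3576, 2785 and 2565 FPKM in C57-non-IR hearts, at 3886, 2806 and 2366 FPKM in C57-IR hearts, at 4087, 3072 and 3732 FPKM in Slit2-non-IR hearts, and at 4074, 3481 and 2602 FPKM in Slit2-IR hearts. All 4 groups overlapped, and replicate 1 was the highest heart of each. Myh6 differed by 0.29 ± 0.23 (log2(FPKM + 1) difference ± SE) between Slit2-Tg and C57BL/6J hearts without IR (95% interval -0.22 to 0.80) and by -0.11 ± 0.23 between Slit2-IR and Slit2-non-IR hearts (-0.62 to 0.39). It shares sequence with Myh7, which lies on the same strand with its 3′ end 3760 bases from the 5′ end of Myh6: 11.4% of the 100-base words of the Myh6 transcript also occurred in Myh7 transcripts and 1.45% in antisense transcripts such as Mhrt. No such word of the other members occurred in another gene on the same strand. Because of the words that Myh6 and Myh7 share, the values of both are uncertain. The counting tool and the use of strand are not given in the sources used here. The uncertainty is larger for Myh7, which was at 0.411 to 1.52% of Myh6 in FPKM. A small share of Myh6 reads counted for Myh7 would change Myh7 and its ratio to Myh6 far more than Myh6.

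Myl2, the regulatory light chain that defines ventricular myosin (chr5:122100951-122113472), was at 4847, 2932 and 2955 FPKM in C57-non-IR hearts and at 3672, 3442 and 3424 FPKM in C57-IR hearts. In Slit2-non-IR hearts it was at 3199, 2585 and 2992 FPKM, and in Slit2-IR hearts at 3529, 2871 and 3218 FPKM. C57-non-IR replicate 1 stood above all other libraries, and the remaining 11 lay between 2585 and 3672 FPKM. Myl3, the essential light chain of ventricle and slow muscle (chr9:110741861-110769798), was also highest in that library, at 3629, 2557 and 2600 FPKM in C57-non-IR hearts. It was at 2683, 2924 and 3057 FPKM in C57-IR hearts, at 2620, 2335 and 2484 FPKM in Slit2-non-IR hearts, and at 2555, 2619 and 2855 FPKM in Slit2-IR hearts. The difference of Slit2-non-IR hearts from C57-non-IR hearts was -0.25 ± 0.20 for Myl2 (95% interval -0.68 to 0.18) and -0.22 ± 0.15 for Myl3 (-0.56 to 0.11). Without C57-non-IR replicate 1 these differences were -0.01 and -0.06.

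Mybpc3 encodes cardiac myosin-binding protein C, which tunes cross-bridge cycling (chr2:91118144-91136516). It was at 856, 743 and 584 FPKM in C57-non-IR hearts, at 904, 627 and 665 FPKM in C57-IR hearts, at 811, 579 and 799 FPKM in Slit2-non-IR hearts, and at 1253, 655 and 784 FPKM in Slit2-IR hearts. The value of 1253 FPKM belonged to the library with the most atrial transcripts, and the next highest library was at 904 FPKM. Mybpc3 differed by 0.26 ± 0.25 between Slit2-IR and C57-IR hearts (-0.30 to 0.81) and by 0.26 ± 0.25 between Slit2-IR and Slit2-non-IR hearts (-0.29 to 0.81). Without Slit2-IR replicate 1, these differences were -0.01 and -0.01. The part of atrial tissue in the first values was not tested.

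Actc1 encodes cardiac α-actin, the backbone of the thin filament (chr2:114047282-114053548). It was at 6687, 5175 and 4697 FPKM in C57-non-IR hearts, at 7429, 4638 and 5538 FPKM in C57-IR hearts, at 6403, 3940 and 4748 FPKM in Slit2-non-IR hearts, and at 7898, 5911 and 6231 FPKM in Slit2-IR hearts. Each Slit2-IR heart exceeded the Slit2-non-IR heart of the same number, although the groups overlapped, because Slit2-non-IR replicate 1 lay above Slit2-IR replicates 2 and 3. The difference of Slit2-IR from Slit2-non-IR hearts was 0.43 ± 0.24 (95% interval -0.10 to 0.96, unadjusted p = 0.103, limma adjusted p = 0.569), the member difference farthest from 0 in the 4 comparisons between groups. When the model held the replicate number as a block, the SE was 0.13, the unadjusted p 0.00894 and limma's adjusted p 0.173. With 1 library left out, the difference ranged from 0.27 without Slit2-non-IR replicate 2, the lowest library of that group, to 0.62 without Slit2-non-IR replicate 1, the highest. In the latter fit the unadjusted p was 0.0332 and limma's adjusted p 0.455. In C57BL/6J hearts the difference after IR was 0.08 ± 0.24 (-0.45 to 0.61), and the interaction of Slit2 and IR was 0.35 ± 0.34 (-0.40 to 1.10).

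Tpm1 encodes α-tropomyosin, which blocks or exposes the myosin-binding sites on actin (chr9:67022590-67049406). It was at 1304, 908 and 993 FPKM in C57-non-IR hearts, at 1215, 1101 and 1014 FPKM in C57-IR hearts, at 966, 938 and 932 FPKM in Slit2-non-IR hearts, and at 1060, 1131 and 1003 FPKM in Slit2-IR hearts. The 3 Slit2-IR hearts all lay above the 3 Slit2-non-IR hearts, and Tpm1 was the single member whose groups did not overlap there. In that comparison the groups of 16.9% of tested genes did not overlap, and 8.65% were higher in Slit2-IR hearts. The difference was 0.17 ± 0.14 (-0.14 to 0.48, limma adjusted p = 0.738).

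The troponin complex is the calcium switch of the thin filament. Tnnt2, troponin T, anchors the complex on tropomyosin (chr1:135836354-135852260) and was at 1024, 675 and 760 FPKM in C57-non-IR hearts, at 903, 879 and 799 FPKM in C57-IR hearts, at 709, 818 and 666 FPKM in Slit2-non-IR hearts, and at 806, 858 and 734 FPKM in Slit2-IR hearts. Tnni3, the inhibitory subunit cTnI (chr7:4518305-4524229), was at 2355, 1566 and 1681 FPKM in C57-non-IR hearts, at 1932, 1949 and 1803 FPKM in C57-IR hearts, at 1627, 1653 and 1546 FPKM in Slit2-non-IR hearts, and at 1608, 1543 and 1733 FPKM in Slit2-IR hearts. Every Slit2-IR heart was below every C57-IR heart for Tnni3, while the non-IR groups overlapped. Tnni3 was the single member of 10 without overlap between Slit2-IR and C57-IR hearts, against 6.47% of all tested genes in either direction and 3.44% lower in Slit2-IR hearts. The difference was -0.22 ± 0.15 (-0.55 to 0.11, unadjusted p = 0.173, limma adjusted p = 0.9996).

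Tnnc1, the calcium-binding subunit (chr14:31208312-31211729), was the steadiest member. It was at 2140, 1746 and 1609 FPKM in C57-non-IR hearts, at 1682, 1751 and 1928 FPKM in C57-IR hearts, at 1580, 1587 and 1719 FPKM in Slit2-non-IR hearts, and at 1778, 1654 and 1938 FPKM in Slit2-IR hearts. Its residual SD within groups was 0.13 on the log2 scale, below the median of 0.15 over all tested genes, and the highest library was 1.35 times the lowest. The residual SD of Actc1 and Mybpc3 was 0.30 and 0.34.

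No member passed the test in any contrast. Of 60 comparisons, 10 genes in 6 contrasts, 0 had a limma adjusted p under 0.05 and 0 an unadjusted p under 0.05, and the lowest adjusted p was 0.542. Among all tested genes, the share past the adjusted threshold was 0.0394% for Slit2-non-IR against C57-non-IR, 0.0459% for Slit2-IR against C57-IR, 0.459% for C57-IR against C57-non-IR and 0.525% for Slit2-IR against Slit2-non-IR hearts. It was 3.49% for the mean IR effect over both genotypes and 0% for their interaction. At the unadjusted threshold the shares were 3.19%, 3.16%, 8.96%, 11.2%, 15.9% and 1.86% for the same 6 contrasts. With so few genes called among all tested, the count of 0 does not set the members apart from other genes. The groups overlapped for all 10 members between Slit2-Tg and C57BL/6J hearts without IR and between C57-IR and C57-non-IR hearts, where 9.2% and 13.8% of tested genes had groups that did not overlap.

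The 95% intervals give, around each estimate, the range of change that the values of these hearts left possible. The bounds below are the lowest and the highest over the genes named, so the interval of any single gene was narrower. On the log2(FPKM + 1) scale, which for genes this abundant is close to a fold of FPKM, the 9 members other than Ttn differed between C57-IR and C57-non-IR hearts by -0.03 to 0.09, with 95% intervals that lay between 0.685-fold and 1.52-fold. Between Slit2-IR and Slit2-non-IR hearts the intervals lay between 0.650-fold and 1.94-fold, between Slit2-Tg and C57BL/6J hearts without IR between 0.622-fold and 1.74-fold, and between Slit2-IR and C57-IR hearts between 0.675-fold and 1.75-fold. The highest of these bounds, 1.94-fold, was that of Actc1 in Slit2-Tg hearts after IR. The median difference of the 10 genes was 0.03 after IR in C57BL/6J hearts, 0.13 after IR in Slit2-Tg hearts, -0.15 for Slit2-non-IR against C57-non-IR and -0.03 for Slit2-IR against C57-IR hearts. The medians over all tested genes lay between -0.01 and 0.01 in these contrasts. Without C57-non-IR replicate 1 the median was -0.0032 for Slit2-non-IR against C57-non-IR and 0.22 after IR in C57BL/6J hearts. The comparisons share groups of hearts, so their medians are not independent of each other.

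**Figure D2:**
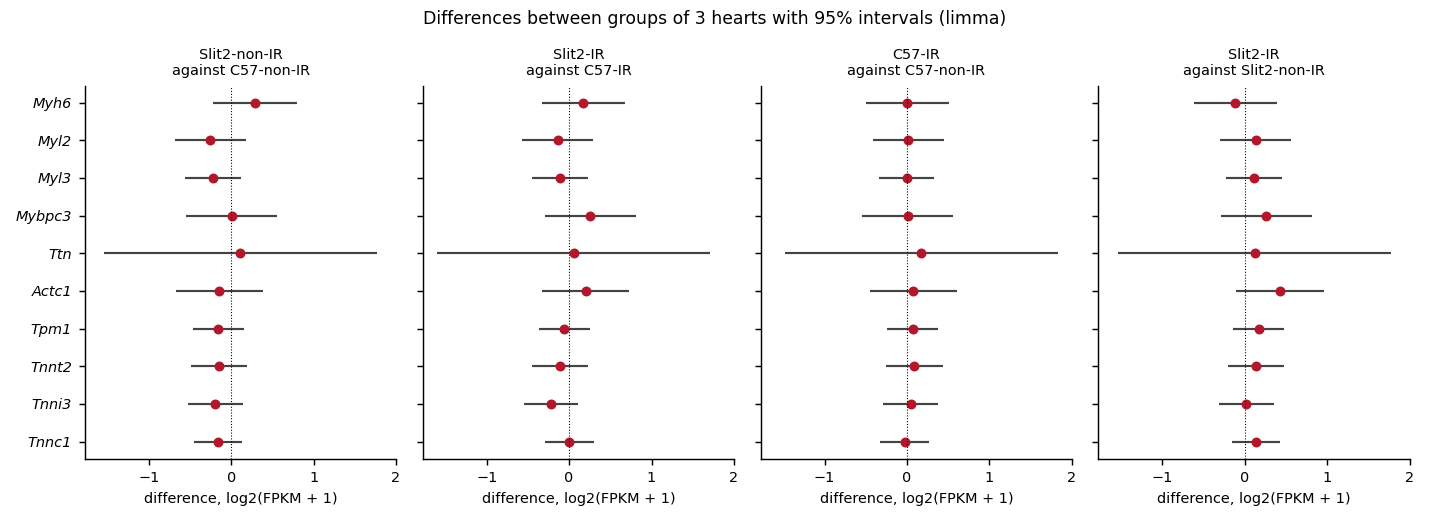
Difference in log2(FPKM + 1) of each sarcomere gene (points) with its 95% interval from limma (lines) in the 4 comparisons between groups of 3 hearts, with 0 dotted. Every interval includes 0, the intervals of Ttn are the widest, and Actc1 after IR in Slit2-Tg hearts has the point farthest from 0.

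Ttn encodes titin, the giant elastic protein that links the Z-disc to the M-band (chr2:76703980-76982547). It was at 23.5, 12.4 and 9.87 FPKM in C57-non-IR hearts, at 49.6, 8.65 and 9.46 FPKM in C57-IR hearts, at 41.4, 9.33 and 9.26 FPKM in Slit2-non-IR hearts, and at 39.8, 12.9 and 9.06 FPKM in Slit2-IR hearts. In all 4 groups replicate 1 was the highest, from 2.12 to 5.48 times the mean of replicates 2 and 3, whereas the 8 other hearts lay between 8.65 and 12.9 FPKM. Between 19932 and 101228 reads fell on Ttn in each library. With a residual SD of 1.08, larger than that of 99.8% of tested genes, differences of Ttn from 0.342-fold to 3.41-fold were within its 95% interval for Slit2-non-IR against C57-non-IR hearts. The replicate number as a block brought the SE of each of the 4 comparisons from 0.76 to 0.24, and the adjusted p stayed at 0.882 or more.

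The same libraries were also the highest for other members, with smaller ratios. Actc1, Myh6, Myl2 and Mybpc3 were, like Ttn, highest in replicate 1 of all 4 groups, with ratios of 1.30 to 1.47 for Actc1, 1.202 to 1.503 for Myh6, 1.07 to 1.65 for Myl2 and 1.18 to 1.74 for Mybpc3. Among all tested genes, 6.40% were highest in replicate 1 of every group, 2.17% in replicate 2 and 1.64% in replicate 3. Tnni3 and Tnnc1 were highest in replicate 1 in 1 group, C57-non-IR, Myl3 and Tnnt2 in 2 groups, and Tpm1 in 3. Long gene models were high in 3 of the 4 replicate 1 libraries. Over 17 protein-coding genes with a model of at least 20000 bases and a mean of at least 5 FPKM, the median log2 deviation from the median library was 0.45 in C57-IR, 0.44 in Slit2-non-IR and 0.44 in Slit2-IR replicate 1, but -0.06 in C57-non-IR replicate 1, where the ratio of Ttn was the lowest. In the 8 other libraries it lay between -0.19 and 0.06. For shorter gene models C57-non-IR replicate 1 was at the ends of the range. Its median deviation was the highest of all libraries over 1108 genes under 2000 bases, at 0.10. Over 480 genes of 8000 to 20000 bases it was the lowest, at -0.11. Ryr2, the calcium release channel, was in replicate 1 at 0.776 times the mean of the other libraries in C57-non-IR hearts and at 1.38 to 2.06 times in the other groups. Of protein-coding genes with a mean of at least 5 FPKM, Ttn had the largest ratio when each gene was taken at its lowest of the 4 groups. What set the replicate 1 libraries apart was not tested.

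**Figure D3:**
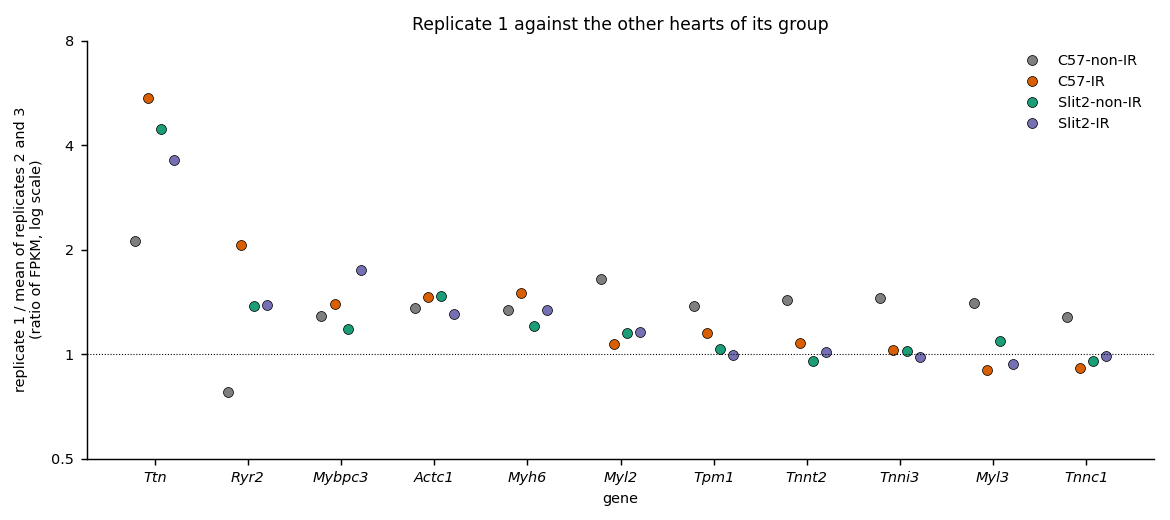
FPKM in replicate 1 divided by the mean of replicates 2 and 3 of the same group (log scale, 1 dotted), for the 10 sarcomere genes and for Ryr2, with 1 point for each of the 4 groups. Ttn lies at 2.12 to 5.48 in the 4 groups, and the troponin genes lie close to 1 except in C57-non-IR hearts.

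Ratios within a library do not depend on its scaling, and 6 of them were compared between groups with two-sided exact permutation tests, whose smallest possible p for 3 against 3 hearts is 0.1. The FPKM of Myl3 relative to Myl2 was 83.4% ± 7.36 in C57-non-IR hearts (SD, n = 3), 82.4% ± 8.41 in C57-IR hearts, 85.1% ± 4.57 in Slit2-non-IR hearts and 84.1% ± 10.2 in Slit2-IR hearts. It was lower in replicate 1 (72.4 to 81.9%) than in replicates 2 and 3 (83.0 to 91.2%) of every group. Tnni3 relative to Tnnt2 was 228% ± 5.72, 220% ± 5.83, 221% ± 16.7 and 205% ± 28.6 in the same order of groups, and Tnnc1 relative to Tnnt2 was 226% ± 27.9, 209% ± 28.7, 225% ± 32.1 and 226% ± 36.0. Within each of these troponin ratios the ranges of the 4 groups overlapped. Of 24 such tests, 1 reached the smallest possible p of 0.1, and after Benjamini-Hochberg adjustment the lowest value was 0.982 (exact permutation test).

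That 1 test was the ratio of Myh7, the slow β-myosin heavy chain that replaces α-myosin in the fetal and the stressed mouse heart, to Myh6. It was 1.11% ± 0.372 in Slit2-IR hearts and 0.645% ± 0.0745 in C57-IR hearts (exact permutation p = 0.1, adjusted 0.982), with 0.967% ± 0.422 in Slit2-non-IR and 0.686% ± 0.352 in C57-non-IR hearts. Myh7 was at 38.7, 11.4 and 14.4 FPKM in C57-non-IR hearts, at 22.3, 18.0 and 17.1 FPKM in C57-IR hearts, at 21.7, 30.5 and 51.3 FPKM in Slit2-non-IR hearts, and at 62.0, 35.9 and 20.6 FPKM in Slit2-IR hearts. Its difference between Slit2-IR and C57-IR hearts was 0.88 ± 0.47 (-0.15 to 1.92, unadjusted p = 0.0858, limma adjusted p = 0.9996). The highest value was again that of Slit2-IR replicate 1, the library with the most atrial transcripts, and without it the difference was 0.50. The sequence shared with Myh6 leaves these low values of Myh7, and the ratio, uncertain.

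The other isoform partners replace members in other muscles. Acta1, skeletal α-actin, was at 157, 173 and 123 FPKM in C57-non-IR hearts, at 218, 61.9 and 362 FPKM in C57-IR hearts, at 216, 117 and 300.0 FPKM in Slit2-non-IR hearts, and at 469, 65.7 and 417 FPKM in Slit2-IR hearts. Its 4 groups overlapped, and it amounted to 1.11 to 6.69% of Actc1. Myl7, the atrial regulatory light chain, was at 1049 FPKM in Slit2-IR replicate 1 and at 108 FPKM in C57-IR replicate 2, and at 0.0817 to 12.5 FPKM in the other libraries. Myl4, the atrial essential light chain, was high in the same 2 libraries, at 134 and 18.6 FPKM, and at 4.02 FPKM or less elsewhere. Tnni1, the slow skeletal and fetal troponin I, did not pass the filter on low values and reached at most 0.479 FPKM.

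Tpm3, which encodes the slow-muscle and cytoskeletal tropomyosin, had the lowest p of the isoform partners after IR. It was at 11.7, 12.1 and 10.8 FPKM in C57-non-IR hearts, at 11.6, 21.6 and 16.9 FPKM in C57-IR hearts, at 8.57, 10.1 and 11.9 FPKM in Slit2-non-IR hearts, and at 13.3, 17.6 and 16.1 FPKM in Slit2-IR hearts. The mean IR effect over both genotypes was 0.52 ± 0.13 (0.22 to 0.82, unadjusted p = 0.00263, limma adjusted p = 0.0636), short of the threshold. With the replicate block limma's adjusted p was 0.0229, and without C57-IR replicate 1, the IR heart with the lowest value, it was 0.00692. In the 11 other fits that left out 1 library it was 0.0713 to 0.135. Tpm2 and Tnnt1 lay between 3.21 and 16.0 FPKM, with mean IR effects of 0.02 ± 0.17 and 0.12 ± 0.15.

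Around the filaments, the Z-disc genes Bag3 and Xirp1 rose after IR in the mean over both genotypes. The mean IR effect compares the 6 IR hearts with the 6 non-IR hearts within genotypes. A list of 67 further sarcomere genes, of which 66 were tested, held 2 genes past the adjusted threshold in this contrast, both higher, against 3.49% of all tested genes in either direction and 2.34% higher. At the unadjusted threshold 13 were higher and 0 lower, against 7.93% and 7.97% of all tested genes. These 13 were 7 of 23 Z-disc genes, 2 of 13 myofilament kinase and phosphatase genes, 2 of 10 thin filament assembly genes, 1 of 13 thick filament and M-band genes and 1 of 7 isoform partners. Without the 2 libraries rich in atrial transcripts, 5 of the 66 were higher at the unadjusted threshold, against 5.96% of all tested genes. The count of 13 was 7 without Slit2-non-IR replicate 2, and 8 without replicate 2 or 3 of C57-non-IR or replicate 1 of Slit2-IR. The median of the 66 genes was 0.12, and that of all tested genes 0.00. In the single comparisons, 0 of the 66 passed the adjusted threshold, and 0, 2, 3 and 9 the unadjusted one for Slit2-non-IR against C57-non-IR, Slit2-IR against C57-IR, C57-IR against C57-non-IR and Slit2-IR against Slit2-non-IR hearts. For the interaction both counts were 0.

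Bag3, a co-chaperone that maintains Z-disc proteins, was at 90.6, 57.1 and 61.5 FPKM in C57-non-IR hearts and at 113, 126 and 117 FPKM in C57-IR hearts. It was at 85.6, 68.8 and 68.1 FPKM in Slit2-non-IR hearts and at 194, 149 and 102 FPKM in Slit2-IR hearts. All 6 IR hearts lay above all 6 non-IR hearts, as for 2.23% of tested genes, with 3.41% in either direction. The mean IR effect was 0.87 ± 0.16 (0.52 to 1.22, limma adjusted p = 0.0123), with 0.78 ± 0.22 in C57BL/6J (adjusted p = 0.203) and 0.95 ± 0.22 in Slit2-Tg hearts (adjusted p = 0.0957). In Slit2-Tg hearts limma's adjusted p was 0.0377 with the replicate block and 0.0363 without Slit2-IR replicate 3. In the 11 other fits that left out 1 library it was 0.0865 to 0.279. The interaction was 0.17 ± 0.32 (limma adjusted p = 0.9998). Without the 2 libraries rich in atrial transcripts the mean IR effect was 0.74 and the adjusted p 0.0613.

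Xirp1, an actin-binding protein of the intercalated disc and Z-disc, was at 36.7, 43.6 and 55.5 FPKM in C57-non-IR hearts and at 95.5, 234 and 89.5 FPKM in C57-IR hearts. It was at 58.2, 60.6 and 52.4 FPKM in Slit2-non-IR hearts and at 141, 215 and 77.8 FPKM in Slit2-IR hearts. Again all IR hearts exceeded all non-IR hearts, and replicate 2 was the highest of both IR groups. The mean IR effect was 1.35 ± 0.28 (0.74 to 1.95, limma adjusted p = 0.0226), with 1.48 ± 0.39 in C57BL/6J and 1.21 ± 0.39 in Slit2-Tg hearts, both short of the adjusted threshold. The call was narrow. Limma's adjusted p rose above 0.05 when any 1 of 6 libraries was left out, namely C57-non-IR replicates 1 and 2, the 3 Slit2-non-IR hearts and Slit2-IR replicate 1, with values of 0.0503 to 0.0607. Without the 2 libraries rich in atrial transcripts the effect was 1.10 and the adjusted p 0.0754.

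**Figure D4:**
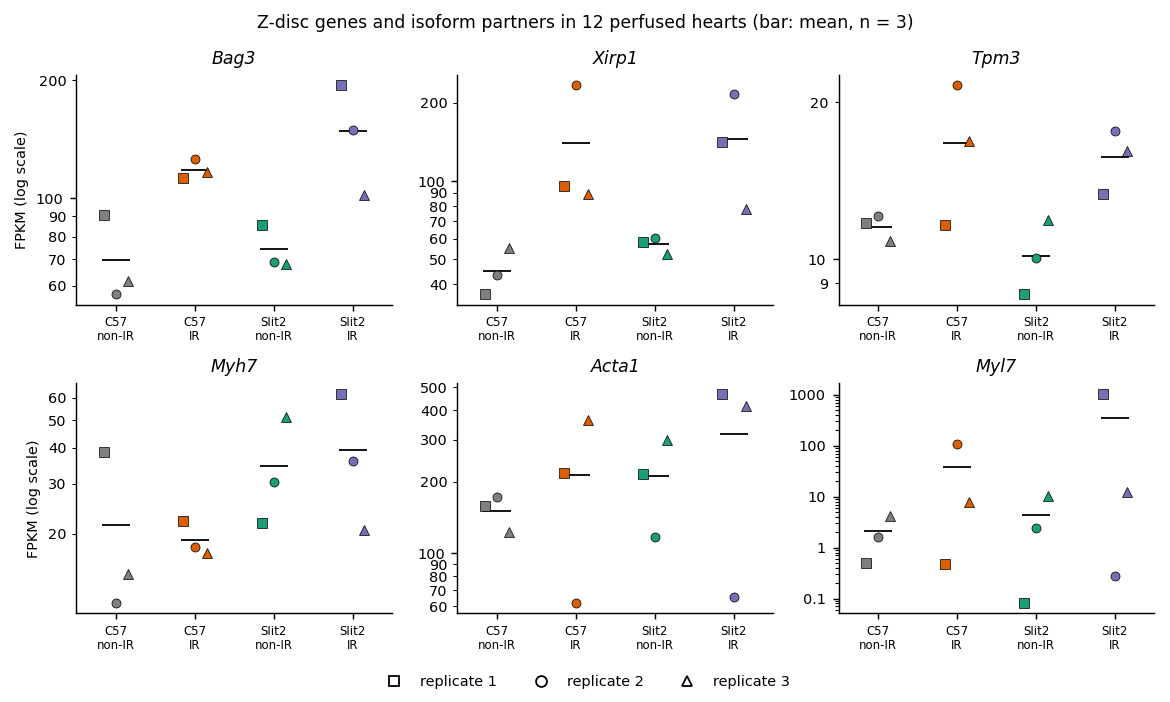
FPKM (log scale) of Bag3 and Xirp1, which rose after IR, and of the isoform partners Tpm3, Myh7, Acta1 and Myl7, in each of the 12 libraries by group, with squares, circles and triangles for replicates 1, 2 and 3 and bars for the mean (n = 3). The IR hearts lie above the non-IR hearts for Bag3 and Xirp1, and Myl7 is at 1049 FPKM in Slit2-IR replicate 1.

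Between genotypes after IR, the lowest p-values of the wider list belonged to Ankrd2 and Obsl1. Ankrd2, a titin-associated ankyrin repeat protein, was at most 1.08 FPKM in any library, at 0.208, 0.323 and 0.445 FPKM in C57-IR hearts and at 1.08, 0.680 and 0.653 FPKM in Slit2-IR hearts. The difference of 0.44 ± 0.12 had a limma adjusted p of 0.9996. At so low a level it depended on the scale, and it was 1.09 with a pseudocount of 0.1 and 1.22 with limma-voom on recovered reads. Obsl1, a gene of the M-band, was at 11.9, 10.6 and 8.54 FPKM in C57-IR hearts and at 25.7, 14.5 and 13.0 FPKM in Slit2-IR hearts, a difference of 0.67 ± 0.26 (limma adjusted p = 0.9996), or 0.39 without Slit2-IR replicate 1. Both genes had groups that did not overlap, as did 6.47% of all tested genes, 3.03% higher in Slit2-IR hearts, and neither passed the adjusted threshold.

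Without IR, the lowest p-values between genotypes were those of Prkce and Myoz2. Prkce encodes protein kinase Cε, a kinase of myofilament proteins. It was at 3.80, 4.96 and 4.74 FPKM in C57-non-IR hearts and at 6.41, 4.87 and 5.30 FPKM in Slit2-non-IR hearts. The difference was 0.25 ± 0.14 (unadjusted p = 0.0974, limma adjusted p = 0.9995). It was 0.15 when replicate 1 of only 1 of these groups was left out, and 0.06 with replicates 2 and 3 alone. Myoz2, a calcineurin-binding Z-disc protein, was at 249, 208 and 196 FPKM in C57-non-IR hearts and at 184, 190 and 202 FPKM in Slit2-non-IR hearts, a difference of -0.17 ± 0.10, or -0.07 without C57-non-IR replicate 1. The interaction of Slit2 and IR was 0.30 ± 0.17 for Ankrd2 and -0.17 ± 0.13 for Ppp1cb, a catalytic subunit of myosin phosphatase. None of these passed the adjusted threshold.

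To find the genes whose pattern over the 12 libraries was most like that of the sarcomere genes, the members' log2 values were standardized and averaged, and this mean was highest in C57-non-IR replicate 1. Among 3443 other genes with a mean of at least 10 FPKM, the 10 highest Pearson correlations with it over the 12 libraries were those of Mdh2 (0.97), Rpl37 (0.95), Rrp1 (0.95), Rpl39 (0.94), Rpl36 (0.94), Elob (0.94), Coa3 (0.94), Atox1 (0.94), Ube2m (0.94) and Cox6a2 (0.93). Mdh2 is the malate dehydrogenase of mitochondria. Without the 2 libraries farthest from the median, C57-non-IR and C57-IR replicate 1, the values fell to between 0.78 and 0.93. The points share the libraries and their depth and scaling, and no test was attached to this order. The members themselves correlated with their mean by 0.45 (Myh6) to 0.94 (Myl2).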

How the data were processed

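Total RNA of heart tissue was sequenced as paired-end libraries. Alignment with HISAT2 to mm10 is named in the submitters' processing notes, and the counting tool, annotation release and use of strand are not given in the sources used here. The deposited values are FPKM per gene, computed by the authors from gene lengths and 1 scaling factor per library. Multiplied by gene length, 100% of values were whole multiples of 1 step per library (within 0.1 reads), which gave back the reads used for depth. The steps followed a median-of-ratios size factor computed from these reads (relative spread 2.33e-12), not the read totals. Because the files held FPKM, limma 3.58.1 in R 4.3.3 was fitted with a variance trend to log2(FPKM + 1), with 12 libraries, 4 group means and Benjamini-Hochberg adjustment over the 15240 tested genes of each contrast. A gene was tested if at least 3 libraries reached the FPKM that 10 reads give in a library of median depth, and if it held 15 reads in all. The code was tested on simulated data.

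The text names all members and isoform partners, further sarcomere genes other than isoform partners past the adjusted threshold or with the 2 lowest p-values of a contrast, and the 10 genes most like the members' mean. The members and lists were chosen with earlier results of these data known. Same-numbered libraries correlated by 0.285, 0.154 and 0.362 between Slit2-IR and C57-IR and by 0.291, 0.294 and 0.143 between Slit2-IR and Slit2-non-IR groups, in deviations from the group means. In the other comparisons the lowest values were 0.0377 and 0.0833. The labels name no shared litter or day, and correlations this weak cannot show that hearts were paired. The main fit therefore held no pairs, and the replicate block is given as an alternative. Sequences were taken from RefSeq on GRCm38.p6, with a match for all 10 genes. Alternatives were another pseudocount, no filter, a replicate block, TMM scaling, scaling without mitochondrial and sarcomere genes, only the 6 libraries compared, limma-voom on recovered reads and leaving out each library. Using replicates 2 and 3 alone, leaving out both libraries rich in atrial transcripts and the principal transcript length were chosen after seeing the data. Python 3.11.15 with scipy 1.17.1 gave the exact permutation tests.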

Additional observations from a re-analysis of the deposited data

How the results depend on the processing

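No member passed an adjusted p of 0.05 under any of 21 alternative settings. Of 1240 member values from them, 77 changed sign, 9 had an unadjusted p under 0.05, and the lowest adjusted p was 0.172 (limma). With the replicate block, Actc1 was the 1 member at an unadjusted p under 0.05 for IR in Slit2-Tg hearts and the 1 in the mean IR effect. With the same block 1 further sarcomere gene, Bag3, passed the adjusted threshold for IR in Slit2-Tg hearts, and 1 the unadjusted one for genotype without IR, as with only the 6 libraries compared (1). Of all tested genes, the block brought 1.33% past the adjusted threshold for IR in Slit2-Tg hearts, and past the unadjusted one 13.7% there, 18.5% in the mean IR effect and 4.48% for genotype without IR (3.79% with the 6 libraries). With replicates 2 and 3 alone, 1 member passed the unadjusted threshold for IR in Slit2-Tg hearts and 2 in the mean IR effect, and of the further genes 2 did for genotype without IR and 7 for IR in C57BL/6J hearts, where 1 passed the adjusted one. The shares of all genes were then 10.9%, 18.2%, 3.85%, 12.8% and, past the adjusted threshold, 1.15%. With no filter, 1 further gene passed the adjusted threshold in the mean IR effect, against 1.06% of all genes. Without both libraries rich in atrial transcripts 0 did, and 5 there and 1 for genotype after IR passed the unadjusted threshold, against 1.56%, 11.1% and 2.60% of all genes.

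Leaving out 1 library at a time gave 0 to 1 members at an unadjusted p under 0.05 for genotype after IR and for IR in Slit2-Tg hearts and 0 to 2 in the mean IR effect. For the further genes it gave 0 to 2 for genotype without IR, 1 to 5 for genotype after IR, 2 to 4 for IR in C57BL/6J hearts, 4 to 12 for IR in Slit2-Tg hearts and 7 to 15 in the mean IR effect. Adjusted calls ranged from 0 to 1 for IR in Slit2-Tg hearts and from 1 to 3 in the mean IR effect. Of all genes, 2.54 to 3.83%, 2.07 to 5.22%, 6.07 to 11.3%, 7.93 to 12.4% and 12.6 to 18.4% then passed the unadjusted threshold in the same 5 contrasts, and 0.0262 to 1.18% and 2.16 to 4.68% the adjusted one in the last 2. The members' median ranged from -0.23 to -0.0032, -0.09 to -0.000875, -0.08 to 0.22, 0.08 to 0.17 and 0.02 to 0.19. The members' share of reads without mitochondrial genes was 8.74 and 8.52% in C57BL/6J hearts without and with IR and 8.71 and 8.68% in Slit2-Tg hearts, since the total was then smaller.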
